A study of Mus musculus with 2 samples.

Results

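Kinesins are motor proteins that walk along microtubules, and kinesin light chains are the subunits that couple the kinesin-1 motor to cargo. The genes described here are those whose GENCODE symbol starts with Kif followed by a digit, c or t, together with Klc1 to Klc4. The annotation holds 51 such genes, and 43 of them had at least 1 read, of 18510 annotated genes with reads in all. The 51 comprise 42 motors, 4 light chains and 5 other loci that share the symbol, which are the kinesin-binding protein gene Kif1bp, the antisense gene Kif16bos and 3 pseudogenes. Reads on these genes made up 0.391% of mouse reads in replicate 1 (4196 reads on 540 transcript models) and 0.378% in replicate 2 (2848 reads on 474 models).

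The tissue was left cerebral cortex, taken from female mice of the F1 hybrid strain B6CASTF1/J at 14 days of age, and its RNA was sequenced as long reads. There is 1 group of 2 libraries, replicate 1 and replicate 2, each made from 2 µg of total RNA and labelled as biological replicates. The labels mention several females and give both libraries the same donor entry, so animals may be pooled, and a p-value here weighs the gap between the libraries by counting error and not by the variation between animals. The samples share 1 tissue, age, sex and strain with no treatment, so the comparisons are between groups of kinesins, between isoforms, and between the libraries.

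In neurons, kinesins carry vesicles, mitochondria and messenger RNA along axons and dendrites. Kinesin-1 is a dimer of Kif5 heavy chains that usually carries Klc light chains. Kinesin-2 and kinesin-3 motors move other cargo, among it synaptic vesicle precursors. A separate set of kinesins builds the spindle, moves chromosomes or completes cytokinesis in dividing cells, and most cortical neurons have left the cell cycle by this age. The families were therefore split into 17 transport kinesins, 4 light chains, 14 mitotic kinesins, 6 kinesins tied to cilia and 5 others.

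The sequences below carry the isoform findings. All positions are on mm10, the bases are from the GENCODE M21 transcripts and the strand is that of the gene. The Klc1 exon (chr12:111789325-111789486, plus strand) is coding; its capitals mark the 24 bases that an upstream acceptor adds and the 27 bases that a downstream donor adds.
Klc1 exon with both extensions: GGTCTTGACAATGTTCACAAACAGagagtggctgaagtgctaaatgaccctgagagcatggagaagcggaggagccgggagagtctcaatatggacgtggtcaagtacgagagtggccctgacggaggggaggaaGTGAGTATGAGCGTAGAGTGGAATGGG
The next Klc1 stretch (chr12:111793649-111793681, plus strand) opens the optional 51-base exon; its capitals mark the coding bases of transcript Klc1-203, which end at the stop codon in lower case.
Klc1 start of the 51-base exon: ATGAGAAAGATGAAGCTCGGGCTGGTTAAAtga
The Kif1a and Kif3a exons below are coding cassette exons, shown whole in capitals, at chr1:93026832-93026855 and chr1:93034546-93034572 (minus strand) and chr11:53588689-53588760 (plus strand).
Kif1a 24-base exon: CGTTTCCTTCGGAAATGACACTAG
Kif1a 27-base exon: GCAGTTTCTTGATTCGGACATACCTAG
Kif3a 72-base exon: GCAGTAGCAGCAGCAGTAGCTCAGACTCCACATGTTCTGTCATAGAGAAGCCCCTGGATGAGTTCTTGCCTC

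Replicate 1 held 1072344 mouse reads and replicate 2 held 753520, and levels are given as RPM, reads per 1000000 mouse reads. The worth of 1 read was 0.933 RPM in the first and 1.33 RPM in the second, and a gene without reads may still reach 2.80 or 3.98 RPM (3 reads). Each long read comes from 1 molecule, so RPM is not divided by length, but molecules of long transcripts may be lost before they are read. Duplicates are not corrected for, so several reads may be copies of the same molecule. Annotated length is given where it bears on a level. A mean carries its SD over n = 2 libraries. Intervals of shares are Wilson 95% intervals and cover counting error only. As a weak check of the labelled tissue, all 12 neuron markers were read in both libraries, at a summed 6799 and 6074 RPM. Nrgn alone gave 3072 and 2868 RPM of these sums, and Slc32a1 had only 2 reads and 1 read.

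Transport kinesins made up nearly all motor reads. Summed over the 17 genes they reached 2361 RPM in replicate 1 and 2238 RPM in replicate 2 (2532 and 1686 reads). The 14 mitotic kinesins together reached 23.3 and 33.2 RPM, on 25 reads in each library. Transport reads thus outnumbered mitotic reads 101-fold in replicate 1 and 67.4-fold in replicate 2 (mean 84.4 ± 23.9). The ratio depends on which motors are listed as mitotic, because Kif2a, kept outside both sets, had 22 and 20 reads. The mitotic share of both sums was 0.978% (interval 0.663 to 1.44%) and 1.46% (0.992 to 2.15%). The light chains stood between them at 1166 ± 32.4 RPM, most of it from Klc1. By gene, the median level was 61.8 RPM among transport kinesins and 1.46 RPM among mitotic kinesins, beside 10.8 RPM over all detected genes. In bulk tissue, fewer cells of a type and less RNA per cell cannot be told apart.

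**Figure D1:**
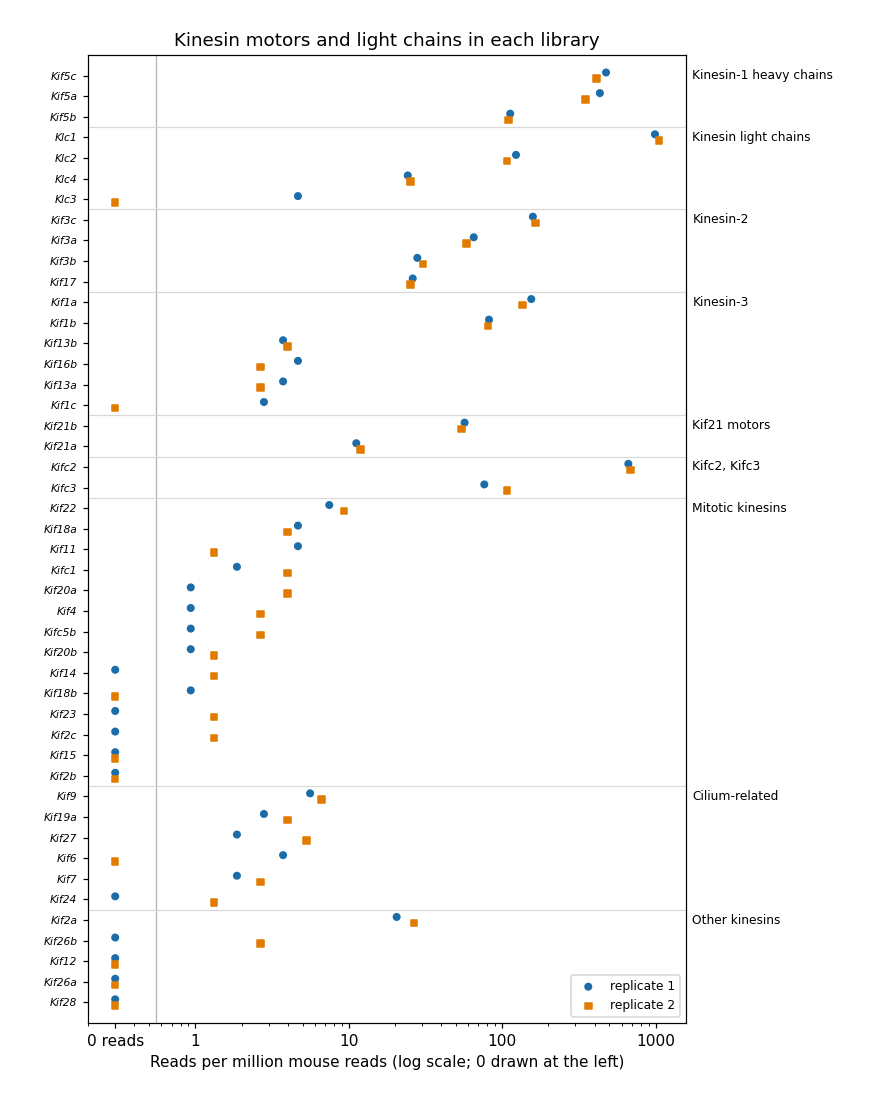
Level of each motor and light chain in RPM (log axis), grouped by family, with circles for replicate 1 and squares for replicate 2; genes without reads in a library are drawn at the left edge. Klc1 leads at 991 and 1056 RPM, and every mitotic kinesin lies below 10 RPM in both libraries.

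**Figure D2:**
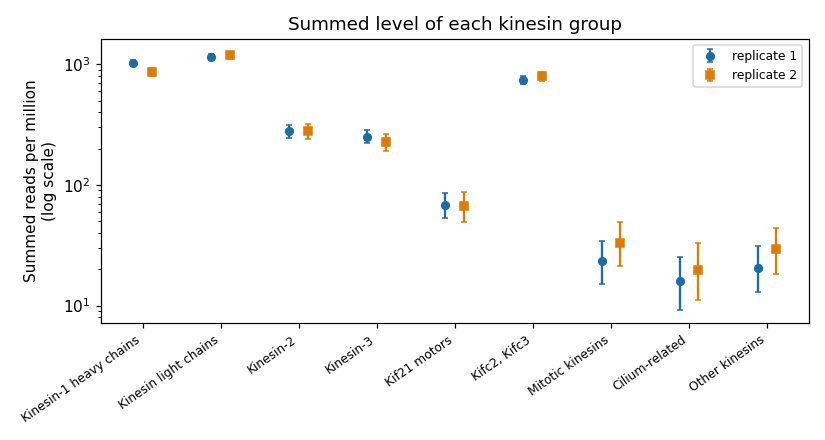
Summed RPM (log axis) of each kinesin group, with circles for replicate 1, squares for replicate 2 and bars for exact Poisson 95% intervals of the summed reads. Mitotic kinesins sum to 23.3 and 33.2 RPM, below each of the transport families.

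Among kinesin-1 heavy chains, Kif5c (chr2:49619298-49774778, plus strand) and Kif5a (chr10:127225696-127263348, minus strand), which are enriched in neurons, exceeded the broadly expressed Kif5b. Kif5c had 476 RPM in replicate 1 and 411 RPM in replicate 2. Kif5a had 434 and 349 RPM, below Kif5c within each library, although the gap was smaller than the difference between the libraries. Kif5b had 113 and 110 RPM, below either of them in both libraries. The 3 heavy chains have similar annotated lengths, at 6856 bases for Kif5c, 6295 for Kif5a and 6032 for Kif5b. Their sum was 1022 and 871 RPM, of the same order as the light chains at 1143 and 1189 RPM, whose transcripts are shorter.

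Klc1 (chr12:111758849-111807844, plus strand) was the most abundant gene of the whole group, with 1063 and 796 reads (1024 ± 46.0 RPM), and ranked 70 among all genes by mean RPM. Klc2 had 123 and 107 RPM and Klc4 24.2 and 25.2 RPM. The order Klc1, Klc2, Klc4 held in both libraries without overlap. Klc3, best known from the testis, had 5 reads in replicate 1 and 0 in replicate 2, a count that allows up to 3.98 RPM.

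Next in abundance was Kifc2 (chr15:76659858-76668196, plus strand), a minus-end directed motor of the kinesin-14 family that is found in neuronal dendrites and axons. It had 665 and 689 RPM (677 ± 16.9). Its relative Kifc3, which is linked to epithelial junctions and apical transport, had 76.5 and 107 RPM. Kifc2 therefore stood above every Kif5 gene in both libraries, at an annotated length of 3218 bases, which is shorter than those of the Kif5 genes.

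Within kinesin-2, Kif3c had 159 and 165 RPM, Kif3a 65.3 and 58.4 RPM and Kif3b 28.0 and 30.5 RPM, in that order in both libraries. Their annotated lengths differ, at 6791 bases for Kif3c, 3161 for Kif3a and 5635 for Kif3b. Kif3a pairs with Kif3b or Kif3c in the motor, and Kifap3, the accessory subunit that links the motor to cargo, had 305 ± 42.5 RPM. Kif17, a homodimeric motor of dendrites and cilia, had 26.1 and 25.2 RPM on 28 and 19 reads, close to the 30 and 23 reads of Kif3b. Its locus shares 10898 bases with Sh2d5 on the same strand, so its reads are uncertain.

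The kinesin-3 motors divided into abundant and scarce ones. Kif1a, which moves synaptic vesicle precursors, had 155 and 135 RPM, and Kif1b, which moves mitochondria or synaptic vesicle precursors depending on the isoform, had 82.1 and 81.0 RPM. Kif13b, Kif16b, Kif13a and Kif1c had between 3 and 7 reads in total. All are long, at 8206 bases for Kif1a and 10233 for Kif1b, and 8865, 6404, 6866 and 6684 for the scarce genes in that order. Loss of long molecules may thus lower any of these levels. Of the Kif21 motors, which slow microtubule growth as well as move along it, Kif21b had 56.9 and 54.4 RPM and Kif21a 11.2 and 11.9 RPM. Their annotated lengths are 9254 and 6439 bases.

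Of the mitotic kinesins, Kif22, which pushes chromosomes toward the spindle equator, was the highest, with 7.46 and 9.29 RPM on 8 and 7 reads. It was the only one of the 14 with 10 or more reads in total. Kif18a, which limits chromosome movement, had 5 and 3 reads, Kif11, which separates spindle poles, had 5 and 1, and Kifc1, which focuses them, had 2 and 3. Kif20a, Kif4, Kifc5b, Kif20b, Kif14, Kif18b, Kif23 and Kif2c had 1 to 4 reads in total. Kif15 and Kif2b had none, so each may reach 2.80 RPM in replicate 1 and 3.98 RPM in replicate 2. Kifc1 and Kifc5b are near-identical copies, so the split of their reads is uncertain. Of 15 partner genes of cell division, 14 had reads and 3 had 10 or more, at a median of 1.60 RPM. Numa1, a spindle pole protein, had 16 and 6 reads, Racgap1, a cytokinesis protein, 11 and 9, and Incenp, a subunit of the chromosomal passenger complex, 11 and 6. The cyclin gene Ccnb1 had 5 and 3 reads and the spindle factor Tpx2 had 2 and 4. Mki67, a marker of cycling cells, had 0 reads in both libraries.

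Kif2a, a depolymerase that trims axon branches, was kept outside both sets and had 20.5 and 26.5 RPM. Its 22 and 20 reads are close to the 25 per library of the 14 mitotic kinesins together. Counting it as mitotic would therefore lower the ratio of transport to mitotic reads. Of the cilium-related kinesins, Kif9 led with 6 and 5 reads, and Kif19a, Kif27, Kif6, Kif7 and Kif24 had 1 to 6 reads in total. Kif12, Kif26a and Kif28 and the 3 pseudogenes Kif22-ps, Kif4-ps and Kifc5c-ps had no reads, while Kif26b had 0 and 2 and the antisense gene Kif16bos 0 and 1. In all, 23 of the 43 genes with reads had fewer than 10.

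Proteins that attach or regulate kinesins were all detected. Each of the 27 genes of the adaptor and regulator list had reads in both libraries, at a median of 99.7 RPM. Fez1, an adaptor of kinesin-1, led with 894 and 646 reads (845 ± 16.7 RPM). Arl8a, a lysosomal GTPase that recruits kinesins, followed with 402 ± 54.4 RPM, and Map7d1, a microtubule protein that recruits kinesin-1, with 325 ± 57.7 RPM. Kif1bp, a kinesin inhibitor that matches the symbol rule without being a motor, had 374 and 203 reads (309 ± 56.1 RPM).

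The libraries were compared gene by gene with a two-sided exact binomial test on reads, adjusted by the Benjamini-Hochberg method over 11339 genes with 10 or more reads. It called 100 genes, or 0.882%, and none of the 20 kinesin genes tested. At an unadjusted p under 0.05 there were 975 genes (8.60%), 4 of the 20 kinesin genes among them. An exact test in edgeR called 25 genes (0.220%) and 0 kinesin genes. Its common dispersion was estimated from the same 2 libraries taken as replicates. The gap under test therefore also set the noise that it was weighed against. Kif1bp had 349 RPM in replicate 1 and 269 RPM in replicate 2, a log2 ratio of 0.37 with an adjusted exact p of 0.157. For Kif5a the log2 ratio was 0.31 (adjusted exact p = 0.206), for Kif5c 0.21 (0.578) and for Kifc3 -0.49 (0.505). Neither the adaptor list nor the division list held a called gene. Scaling to the ERCC spike-ins instead moved the median log2 ratio of all genes to -0.24 and called 323 genes (2.85%), 304 of them lower in replicate 1. Of the 20 kinesin genes 3 then passed, namely Klc1 at -0.34 (adjusted exact p = 1.78e-04), Kifc2 at -0.30 (0.0212) and Kifc3 at -0.74 (0.0435). With mouse read totals, the median log2 ratio was -0.02 over the kinesin genes tested and 0.00 over all genes tested.

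Markers of oligodendrocytes, and Ttr of the choroid plexus and meninges list, differed between the libraries. Oligodendrocyte markers summed to 6337 RPM in replicate 1 and 3720 RPM in replicate 2, and 7 of the 12 passed the test, all higher in replicate 1. The choroid plexus and meninges list summed to 92.3 and 348 RPM, of which Ttr alone gave 25.2 and 256 RPM (27 and 193 reads). Ttr was the 1 gene called of the 3 tested. Dcn (29.8 and 58.4 RPM) and Folr1 (0 reads and 1 read) were also higher in replicate 2. Col1a1 (34.5 and 30.5 RPM) and Foxj1 (3 reads and 1 read) were higher in replicate 1, and Kl had 0 in both. No gene of the neuron, precursor, astrocyte, microglia or vascular lists was called. The part of these differences in kinesin levels was not tested.

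Klc1 was read through its alternative 3′ part in single molecules. Of its spliced reads, 97.4% in replicate 1 and 96.1% in replicate 2 ended in the proximal of its annotated last exons. Within them 3 optional segments, the 24-base and 27-base extensions and the 51-base cassette exon, all divisible by 3, can combine in 8 ways. All 8 were read in both libraries. The 24-base extension was in 74.9% and 73.3% of the 1017 and 737 classified reads, the 27-base extension in 20.1% and 20.5%, and the 51-base exon in 46.0% and 49.3%.

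The most frequent form carried the 24 bases alone, in 371 and 240 reads (36.5%, interval 33.6 to 39.5%, and 32.6%, 29.3 to 36.0%). The next carried the 24 bases and the 51-base exon, in 251 and 200 reads (24.7% and 27.1%). Reads with none of the segments numbered 107 and 79, and reads with the 51-base exon alone 84 and 67. All 3 segments occurred together in 85 and 65 reads, and the rarest form, the 27 bases alone, in 16 and 20. The order of the leading pair was the same in both libraries, although their intervals overlapped in replicate 2 (29.3 to 36.0% and 24.1 to 30.5%).

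**Figure D3:**
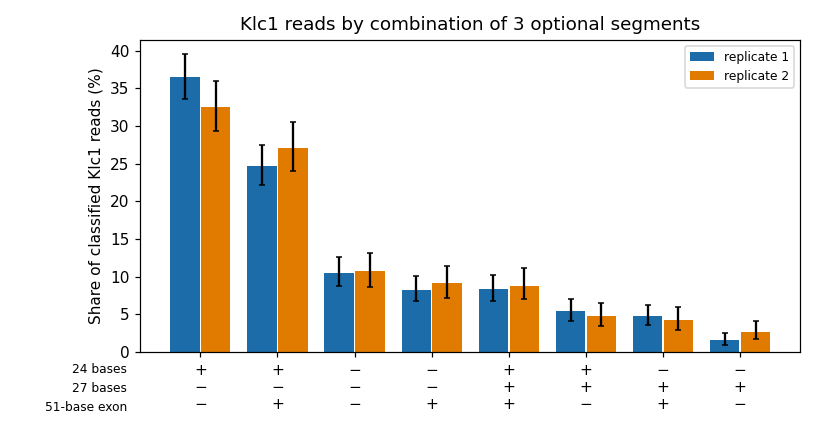
Share of classified Klc1 reads (%) with each combination of the 3 optional segments; a plus under a bar means that the segment is in the read, left bars are replicate 1, right bars replicate 2, and lines are Wilson 95% intervals. The 2 forms with the 24-base extension and without the 27-base one hold the largest shares, 36.5% and 32.6% for the first.

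The annotation holds 9 Klc1 transcripts but only 2 of these 8 combinations with this last exon, that of Klc1-202 (24 bases alone) and that of Klc1-203 (all 3 segments). Those covered 44.8% and 41.4% of the classified reads. As whole splice chains, Klc1-202 had 327 and 206 reads, while the chain with the 24 bases and the 51-base exon had 232 and 179 and is unannotated. The other unannotated chains with the most reads were the form with no segment (99 and 73 reads), the form with all 3 segments plus the first exon that Klc1-203 lacks (73 and 57) and the form with the 51-base exon alone (74 and 56). Together with a Klc2 chain described below they are the most abundant unannotated chains of the kinesin genes.

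The share of the 51-base exon differed with the 27-base extension. The 51-base exon was in 65.2% (interval 58.4 to 71.4%) of replicate 1 reads with the 27-base extension and in 41.2% (37.9 to 44.6%) of those without it. In replicate 2 it was in 63.6% (55.7 to 70.8%) of reads with the extension and 45.6% (41.6 to 49.6%) without. The intervals did not overlap in either library. For the other pairs of segments the intervals overlapped in both libraries, which does not show that those segments are used independently. The 51-base exon was in 44.1% of reads with the 24-base extension and 51.8% without it in replicate 1, and in 49.1% and 49.7% in replicate 2. The 27-base extension was in 18.4% (15.8 to 21.3%) of reads with the 24 bases and 25.1% (20.2 to 30.8%) without them in replicate 1. In replicate 2 it was in 18.5% (15.5 to 22%) with them and 25.9% (20.3 to 32.4%) without, a gap of the same direction. In Klc1-203 the coding region runs 30 bases into the 51-base exon, as printed above, and in Klc1-202 it ends 3 bases into the last exon. The C-terminal end of the Klc1 protein is known to differ between splice forms.

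Klc2 was split between a pair of forms of similar abundance. The first intron ended at either of 2 acceptors 37 bases apart, both upstream of the annotated start codon. The acceptor of Klc2-201, which adds the 37 bases, was used by 59 reads (50.4%) in replicate 1 and 41 reads (57.7%) in replicate 2, and the other acceptor, that of Klc2-204, by 58 and 30. The leading unannotated chain had 53 and 38 reads, and Klc2-204 had 55 and 29.

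The transport motors with 20 or more full reads in each library, other than Kifc3, and Kif1bp were read mostly as a single annotated form. Kifc2-201 had 436 and 306 reads, or 76.2% and 74.5% of full reads, and the next chain had 24 and 21. Kif5c-201 took 93.2% and 92.1% of full Kif5c reads, Kif5a-201 92.3% and 91.9%, Kif5b-201 87.7% and 83.6%, Kif3c-201 93.8% and 92.6%, and Kif1bp-201 97.5% and 97.4%. Their next chains had at most 6 reads in either library. Kif3a-201 held 83.3% and 75.7%, and its next chain had 4 reads and 1 read. Kifc3-201 held 42.9% and 41.2% of the full Kifc3 reads (33 and 28), and an unannotated chain of 22 exons had 19 and 13 reads. Among genes with fewer full reads, annotated chains took 7.69% and 14.3% of those of Kif1b (26 and 14 in all) and 31.6% and 38.5% of those of Klc4 (19 and 13), and none of those of Kif1a (4 and 2) or Kif17 (16 and 9). The leading chain had a median share of 82.6% over the 10 kinesin genes with 20 or more full reads in each library, beside 85.3% over 5167 such genes. Annotated chains took a median of 82.6% of the full reads of those kinesin genes, against 92.1% over all genes.

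Isoform use was compared between the libraries by a chi-square test with simulated tables over 3176 genes, which called 31 (0.976%) and 0 of the 8 kinesin genes tested. The lowest unadjusted permutation p among the kinesins was 0.0219, for Kifc2, with an adjusted p of 0.456, and it was the only one of the 8 under 0.05, beside 255 of all 3176 genes (8.03%). Exon inclusion was compared by Fisher's exact test on 10763 exons, of which 1 was called (0.00929%), and none of 74 kinesin exons. No kinesin exon had an unadjusted p under 0.05, beside 139 of all 10763 exons (1.29%). Of the 74 only 8 were included in 5 to 95% of spanning reads, against 2096 of the 10763. Most of the others had few skipping reads, and exons of the same gene share reads. The test could hardly reach a low p for them, so 0 of 74 is not read as a result.

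Of the 74 kinesin exons, each both included and skipped in some read, 8 were included in 5 to 95% of spanning reads, in 4 genes. The Kif1a 24-base exon, exon 37 of 48 in Kif1a-204, was in 27 of 52 spanning reads (51.9%) in replicate 1 and in 16 of 24 (66.7%) in replicate 2. The 27-base exon was in 12 of 52 and 3 of 24. They were seen together in 1 and 0 reads, and neither was in 14 and 5 in these small samples of reads. Each is annotated in 1 of the 11 Kif1a transcripts. The 72-base exon of Kif3a was in 5 of 62 and 5 of 36 reads and is in 1 annotated transcript, Kif3a-202.

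The Kifc3 27-base exon near the 3′ end was included in 85.2% (75.9 to 91.3%) and 89.2% (80.1 to 94.4%) of reads. Upstream, its 182-base and 139-base exons were included in 42.1% and 39.7% of reads for the longer and 31.0% and 28.6% for the shorter. They mostly travelled together, with both in 21 and 20 reads and neither in 43 and 44. The 182-base exon was alone in 6 and 6, and the 139-base exon alone in 1 and 0. Reads with any other exon form in this stretch numbered 5 of 76 and 3 of 73. Shares of the 182-base exon are of 76 and 73 reads, and those of the 139-base exon of 71 and 70. The 131-base exon of Klc1, which belongs to the rare forms with the distal last exon, was in 22 of 26 and 27 of 28 reads. Outside the range, the shortest tested exon was a 27-base coding exon of Kif5c (chr2:49728542-49728568), in 2 of 392 and 0 of 236 reads. The most covered was a 68-base exon of Klc1, in 1030 of 1030 and 764 of 765.

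**Figure D4:**
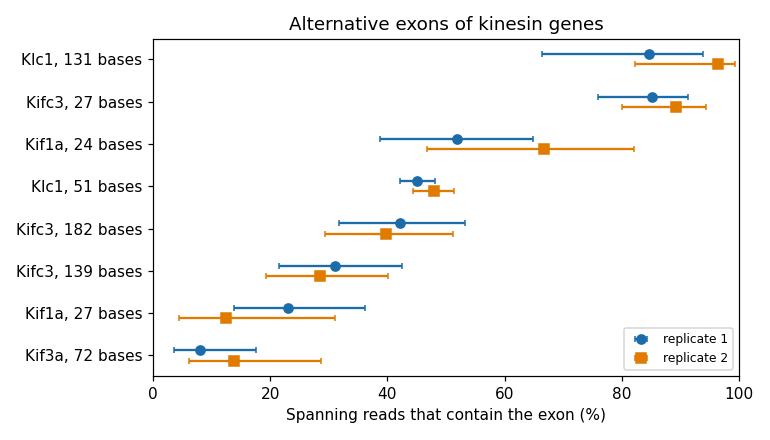
Share of spanning reads that contain each alternative exon (%), with circles for replicate 1, squares for replicate 2 and bars for Wilson 95% intervals. Every pair of intervals overlaps, and the 51-base Klc1 exon has the narrowest, at 45.1% and 47.9%.

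How much of a transcript was read depended on the gene. Reads on full chains, annotated or not, made up 75.5% and 75.1% of kinesin reads, against 83.4% and 81.8% over all annotated genes. The share was 64.5% and 63.9% for transport kinesins and 92.4% and 91.5% for light chains. Light chain reads were largely in new combinations of annotated splice sites, at 56.1% and 58.7% against 6.47% and 6.54% over all annotated genes.

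Annotated length went with this share. The length classes cover protein-coding genes with 20 or more reads in each library. Their median full share was 95% under 2 kb, 90.1% at 2 to 4 kb and 79.9% at 4 to 6 kb. It was 62.6% at 6 to 8 kb and 47.9% at 8 kb or more. Klc1 had a mean of 92.9%, Kif1bp 96.1%, Kifc2 79.7%, Kif3a 84.9% and Kif3c 85.9%. The Kif5 genes lay between 56.4% for Kif5a and 70.5% for Kif5c. Kif1a had 2.19%, Kif21b 6.54% and Kif1b 26.2%, of which the first pair lay below the lower quartile of their length class (15.3%). Kif3b, at 19.9% and 5635 bases, was also below the lower quartile of its class (62.4%).

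**Figure D5:**
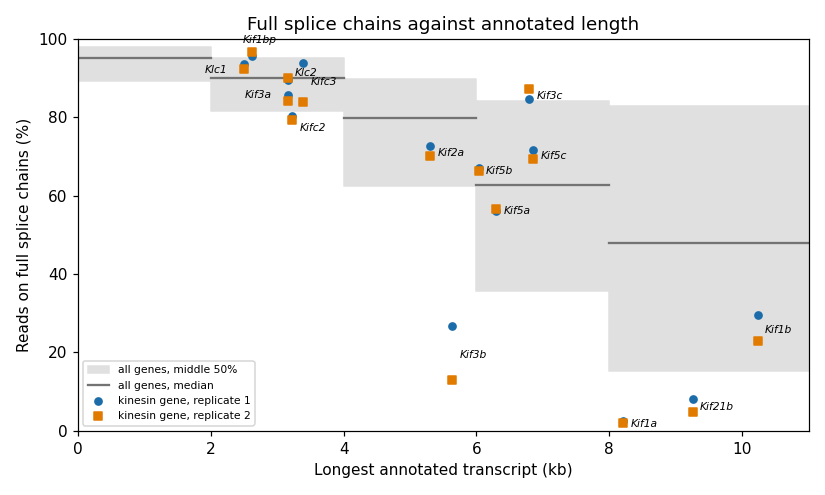
Share of reads on full splice chains (%) against the longest annotated transcript of a gene (kb), with circles for replicate 1 and squares for replicate 2. Grey lines and bands are the median and middle 50% of each length class, over protein-coding genes with 20 or more reads in each library. Kif1a and Kif21b lie near the bottom at 2.19% and 6.54%, while Klc1 lies at 92.9%.

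For the longest motors a large part of the count came from unspliced pieces of the last exon. Kif1a had 166 and 102 reads, and single-exon models that ended at the annotated end held 83 and 65 of them. Such models held 48 and 27 of the Kif1b reads and 52 and 33 of the Kif21b reads. In Kif5a, single-exon models with 111 and 56 reads ran 572 bases beyond the annotated end. In total 353 and 227 kinesin reads were of the unspliced class called Genomic, and 94.9% and 91.2% of them lay mostly within a terminal exon. Some reads held every intron of a very long model. A Kif1b chain of 48 exons, with a model length of 10245 bases, had 13 and 8 reads and is unannotated. It is named here after its values were seen, and how far each read reached into the end exons is not known.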

How the data were processed

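Total RNA of left cerebral cortex was sequenced as long reads in 2 libraries of 1 group. In the deposited tables each transcript model has a raw count of reads, not normalized, and the models' exons are on mm10; per the file headers and labels, the annotation was GENCODE M21, and the annotation field of the models names TALON. The aligner is not given in the sources used here, and the authors classed models as annotated, incomplete, new combinations of annotated splice sites, with a new splice site, antisense, intergenic or Genomic.

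Counts were summed per gene with Python 3.11.15, pandas 2.3.3 and scipy 1.17.1, and scaled to mouse reads, which leaves out the 14936 and 8856 ERCC reads of replicates 1 and 2. Splice chains were matched between libraries by intron positions. Log2 ratios are replicate 1 over replicate 2 with a pseudocount of 0.5 reads. Genes with 10 or more reads were compared by two-sided exact binomial tests. Isoform use was compared by chi-square with 10000 simulated tables over chains with 5 or more reads, in genes with 20 or more full reads per library. Exons with 20 or more spanning reads per library were compared by Fisher's exact test. All p-values were adjusted by the Benjamini-Hochberg method over all features, with calls at 0.05, and each test was tested on simulated data. edgeR 4.0.16 and DESeq2 1.42.0 served for alternatives, because 1 group gives no contrast to a count model.

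The kinesin genes, role lists and marker lists were chosen with earlier results of these data known. Named items are all genes of the symbol rule, the 2 leading chains of those with 20 or more full reads per library, the exons included at 5 to 95%, the shortest and the most covered exon outside it, up to 5 unannotated chains, and of the adaptor and division lists the 5 most abundant genes, any called and those at 0. Duplicates are not corrected for, and reads shared by near-identical or overlapping genes follow the authors' assignment.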

Additional observations from a re-analysis of the deposited data

How the results depend on the processing

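No kinesin gene was called between the libraries under any scaling, filter, model set or test tried, except with ERCC scaling, which called Klc1, Kifc2 and Kifc3. The count of all genes called was 100. It became 35 with annotated models alone, 176 without Genomic models, 323 with ERCC scaling and 25 with edgeR's exact test, and was within 1.5 times of 100 under the other 6 settings. The log2 ratio changed sign with annotated models alone for Klc1 (0.035) and Kif3b (0.70), without Genomic models for Kif17 (-0.20) and Kif1b (-0.20), and with reassignment of models by overlap for Kif17 (-0.28), which overlaps Sh2d5 on the same strand. With ERCC scaling it changed sign for Kif5b (-0.21), Kif1a (-0.054), Kif3a (-0.090), Klc2 (-0.053), Kif5c (-0.037), Kif17 (-0.21), Kif21b (-0.19) and Kif1b (-0.23).

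With annotated models alone and without Genomic models, levels and log2 ratios were scaled to the reads of that model set, not to all mouse reads. On that scale the summed transport level of 2299 RPM became 1844 and 2133, and the light chain sum of 1166 RPM became 549.7 and 1232. In reads, transport fell from 2532 and 1686 to 1348 and 873 with annotated models alone and 2196 and 1480 without Genomic models. Light chain reads fell from 1226 and 896 to 405 and 258, and to 1220 and 888. The ratio of transport to mitotic reads was 78.5 with annotated models alone and 74.8 without Genomic models. With n = 2, leaving out either library only returns the value of the other, so it is no check of stability. Those values, replicate 1 first, were 101 and 67.4 for the ratio and 2361 and 2238 RPM for transport. They were 23.3 and 33.2 RPM for mitotic kinesins and 1143 and 1189 RPM for light chains. The count of genes called in isoform use fell to 0 with annotated chains alone, where 1751 genes could be tested, 112 of them at an unadjusted p under 0.05. The exon count of 1 became 0 with annotated models alone, where 1198 exons could be tested and 40 had an unadjusted p under 0.05. With those models the 51-base Klc1 exon was in 0.371% of reads, because Klc1-203, the annotated transcript that holds the exon, had 1 read in each library and the other chains with it are unannotated. For the other changes the cause was not tested. Depth limits the mitotic kinesins, with 25 reads in each library. No paired analysis was possible because the series has 1 group.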

Other observations

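Reads from the opposite strand of the kinesin genes were scarce. Models that the authors classed as antisense and that overlapped a kinesin gene held 79 reads in replicate 1 and 87 in replicate 2, beside 4196 and 2848 sense reads. Kif1b had the most, with 19 and 20 antisense reads beside 88 and 61 sense reads, and Kifc2 and Kif5c had 10 or 11 in each library. Of all these reads, 6 in replicate 1 and 0 in replicate 2 were spliced.

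Kif17 reads shared no full structure. The full reads, 16 in replicate 1 and 9 in replicate 2, fell on 25 splice chains, of which none was annotated and none was seen in both libraries. The gene shares 10898 bases with Sh2d5 on the same strand. Kif1b reads ended mostly in the annotated last exon farthest downstream, in 36 of 40 spliced reads in replicate 1 and 21 of 32 in replicate 2, and 2 reads in each library ended in another annotated last exon. In Kifc2 an acceptor 51 bases downstream of the main one was used by 86 reads in replicate 1 and 59 in replicate 2 (13.6% and 13.3%), beside 548 and 383 reads at the main site.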
